A study of Sus scrofa with 9 samples.

Results

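The liver response of Wujin pigs to a low-iron diet was examined in 6 of the 9 RNA-seq libraries of a dietary iron experiment. These are the 3 libraries of the low-iron group and the 3 of the control group. Groups were taken from the library titles and the design text of the series, and the libraries were chosen by group alone. Piglets of 35 days of age were fed for 30 days, after a prefeeding period of 5 days, on a diet with 0 mg/kg (low iron), 100 mg/kg (control) or 200 mg/kg (high iron) of added iron in the form of iron glycinate. All 3 groups were of the same breed, no allele or drug separated them, and the low-iron diet was defined by leaving out the supplement. Each library comes from the whole liver tissue of 1 pig that was picked at random from its group, and the sex of a pig is not in its label. Libraries are named here by group and by the number in their title, which gives low-iron replicates 2, 3 and 7, control replicates 4, 5 and 6 and high-iron replicates 2, 7 and 8. Values of a gene are given in these orders throughout.

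Iron enters hepatocytes bound to transferrin through the transferrin receptor (TFRC), is stored in ferritin (FTH1 and FTL) and leaves the cell through ferroportin (SLC40A1). When iron in the cell is low, iron regulatory proteins bind iron-responsive elements, short hairpins in certain transcripts. Binding in the 3′ untranslated region of TFRC protects that transcript from decay, while binding in the 5′ untranslated region of the ferritin and ferroportin transcripts blocks their translation. The liver also makes hepcidin (HAMP), the hormone that degrades ferroportin and so lowers iron entry into the blood. Hepcidin transcription follows BMP6 signalling through SMAD proteins. The prolyl hydroxylases that mark the hypoxia-inducible factors (HIF) for decay need iron and oxygen, so HIF target genes are a further read-out of both.

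The table holds FPKM, that is, fragments scaled to transcript length and to library size, for 25918 genes. The sum of FPKM ranged from 416922 to 456420 per library, and 16235 to 17817 genes were above 0. FPKM keeps no counts, and the reads per library that the study reports were not used here. The precision of a value was judged from how far the 3 libraries of 1 group lay apart. All 10 hepatocyte markers were present in the libraries, and albumin (ALB) was between 47397 and 74134 FPKM in the 6 libraries compared. The summed level of the 10 markers ranged from 55458 to 70443 FPKM in low-iron and from 59171 to 83082 FPKM in control libraries, with a median log2 difference of 0.00 and none called. The tissue therefore carried its label's markers in both groups.

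Iron-responsive elements were read from the pig genome (Sscrofa11.1) to show which of the iron genes carry a hairpin that the iron regulatory proteins can bind. The search took a C bulge, 5 paired bases, a loop of 6 bases (CAGAGN or CAGTGN, with a last base other than G) and at least 4 of 5 paired bases below the bulge, on the gene's own strand. In the sequences, the loop is in capitals and the bases around it are the stem.
TFRC hairpin 1: tttatcagtgaCAGAGTtcactataaa
TFRC hairpin 2: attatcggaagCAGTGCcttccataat
TFRC hairpin 3: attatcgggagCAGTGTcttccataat
TFRC hairpin 4: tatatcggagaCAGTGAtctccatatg
TFRC hairpin 5: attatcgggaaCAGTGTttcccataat
FTH1: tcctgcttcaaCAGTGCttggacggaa
FTL: tcttgcttcaaCAGTGTttggacggaa
SLC40A1: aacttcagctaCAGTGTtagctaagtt

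TFRC lies on the plus strand of chr13:133976765-133997554, and its annotation ends 53 bases after the stop codon. The 5 TFRC matches therefore lie past the annotated end, at chr13:133998417-133998443, chr13:133998467-133998493, chr13:133998877-133998903, chr13:133998942-133998968 and chr13:133998989-133999015, which is 863 to 1435 bases beyond it. The same window of 3000 bases after the annotated end held at least 1 match in 29 of 20624 genes (0.141%) and at least 5 in 1 gene (0.00485%), which was TFRC. The other 3 matches are in annotated 5′ untranslated regions, of FTH1 at chr2:9535176-9535202, of FTL at chr6:54231195-54231221 and of SLC40A1 at chr15:94161661-94161687 on the minus strand. No match was found for SLC11A2, the importer DMT1, with these letters in its annotated transcripts and this window. A match is a description of sequence and was not measured as a binding site.

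Few genes passed the thresholds between low-iron and control liver, and none did after adjustment. After genes with a mean under 0.5 FPKM over the 9 libraries were left out, 12584 genes were tested with limma on log2(FPKM + 0.1), in a fit in which the 3 groups share an estimate of the spread. A gene was called where its fold change reached 2 and its p-value before adjustment was under 0.05, which is the p-value threshold named below. A total of 111 genes were called (0.882% of those tested), 75 of them higher (0.596%) and 36 lower (0.286%) in low-iron liver. The p-value alone was under 0.05 for 463 genes (3.68%), a smaller share than the 0.05 that no difference in any gene would give. With Benjamini-Hochberg adjustment in limma, 0 genes had an adjusted p under 0.05 and the smallest adjusted p was 0.999849, so every call below rests on the unadjusted value. The 3 low-iron and the 3 control values did not overlap for 1050 genes (8.34%), 768 with low iron above (6.1%) and 282 with low iron below (2.24%). With no difference, 3 against 3 values would fail to overlap for a share of 0.1. Neither a p-value past the threshold nor a lack of overlap therefore sets a gene apart by itself. Among called genes the values did not overlap for 79, of which 53 were higher and 26 lower. Low expression was common among calls, since 64 of the 111 had a mean under 2 FPKM and 18 had a mean of at least 10 FPKM. Of the genes called higher, 9 had a mean under 0.5 FPKM over the control and high-iron libraries, and 6 of those called lower over the low-iron and high-iron libraries, so these passed the filter only through the group in which they were high. Of the called genes, 73 have a gene symbol, 7 have a LOC number and 31 are new genes of the authors' assembly without a name. Only 23 were called in each of the 9 fits that left out 1 library.

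The balance of directions depended on the scaling between libraries. In the deposited FPKM, 7887 of the 12584 genes (62.7%) were higher in low iron and the median log2 difference of all tested genes was 0.08. Median-of-ratios scaling brought this median to -0.00 and left 53 genes called higher and 47 called lower, and quantile normalization left 52 and 58. Log2 differences of gene lists are therefore given beside the value after median-of-ratios scaling. Counts within a list stand against 0.882% of all tested genes called and 62.7% higher in low iron. The lists were chosen with earlier results of these libraries known, so such counts are descriptions. In whole tissue, fewer cells of a type and less RNA per cell cannot be told apart.

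**Figure D1:**
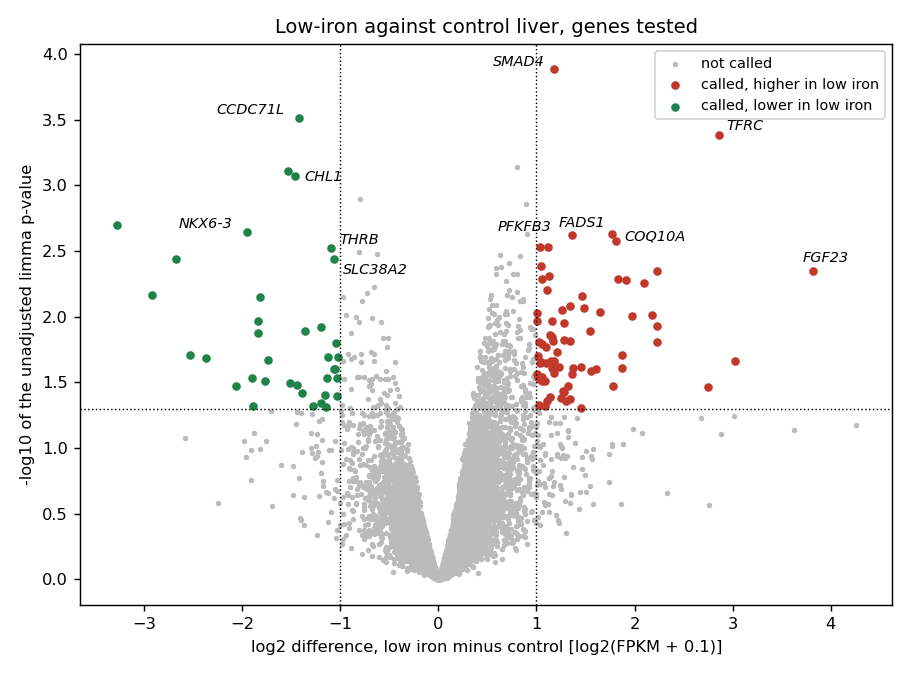
Each point is 1 of the 12584 tested genes, with the log2 difference of low iron minus control on the x axis and minus log10 of the unadjusted limma p-value on the y axis. Dotted lines mark both thresholds of a call. The 75 genes called higher and the 36 called lower are coloured, and TFRC and SMAD4 stand highest on the right.

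TFRC, which brings transferrin-bound iron into the cell, had the largest difference of the iron genes tested. TFRC measured 87.9, 129.8 and 28.6 FPKM in low-iron libraries and 6.51, 17.04 and 7.51 FPKM in control libraries. Every low-iron library was above every control library, and low-iron replicate 7 was the lowest of its group. The mean was 82.1 ± 50.8 FPKM (SD, n = 3) in low iron against 10.4 ± 5.81 FPKM (SD, n = 3) in control. On the log2 scale the difference was 2.86 ± 0.56 (SE), a 7.25-fold higher level, and it was called in all 9 fits that left out a library. Without low-iron replicate 7 it was 3.49. High-iron libraries measured 40.6, 15.9 and 18.5 FPKM, and low iron was also above high iron, by 1.59 ± 0.56 with overlapping groups. The comparison of low with high iron uses the same low-iron libraries. High iron was itself above control, by 1.27 ± 0.56 (past the p-value threshold) with overlapping groups, so a higher TFRC was not particular to low iron. In the whole table, 194 genes (1.54%) were called between low and high iron.

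Erythroid cells also express TFRC, and their markers were therefore set beside it. Of 17 erythroid markers, 14 were found and 5 passed the filter, with TFRC itself among them. The list's counts, medians and summed level therefore include TFRC. All 5 had a higher mean in low iron, at a median of 0.97 (0.89 after median-of-ratios scaling), the highest median of any list, and TFRC was the only one called. This median was 0.47 without low-iron replicate 7, 0.34 without control replicate 4 and 1.65 without control replicate 6. Array quality weights gave 1.44. ALAS2, the first enzyme of haem synthesis in red cell precursors, differed by 0.97 ± 0.62, alpha-type globin HBM by 0.89 ± 0.85 and the erythropoietin receptor EPOR by 0.27 ± 0.34. Beta-globin (HBB) measured 1409, 470.1 and 2433 FPKM in low-iron and 208.8, 671 and 1434 FPKM in control libraries, at 1.00 ± 0.72 with overlapping groups. Low-iron replicate 7 had the highest HBB and the lowest TFRC of its group, and replicate 3 the reverse. KLF1, the erythroid transcription factor, was at 0 in all 9 libraries. The summed level of the erythroid markers ranged from 609 to 2485 FPKM in low-iron and from 219 to 1460 FPKM in control libraries. The part of erythroid cells in the TFRC difference was not tested.

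The other genes of iron uptake and sensing gave no further call. Of 13 tested members of that list, 1 was called higher and 12 were not called, with a median log2 difference of 0.09 (0.01 after median-of-ratios scaling). STEAP3, the endosomal ferrireductase that works beside TFRC, measured 18.5, 17.97 and 17.9 FPKM in low-iron and 34.2, 19.0 and 35.6 FPKM in control libraries. These values did not overlap, at a log2 difference of -0.65 ± 0.24 (past the p-value threshold), below the fold change needed for a call. SLC11A2 differed by 0.46 ± 0.29. Transferrin (TF), with 5573 to 7590 FPKM in low-iron and 6127 to 6988 FPKM in control libraries, differed by 0.06 ± 0.27.

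Genes whose transcripts carry the hairpin in the 5′ untranslated region showed no call at the RNA level. Ferritin heavy chain (FTH1) measured 2862, 2024 and 2397 FPKM in low-iron and 1915, 1935 and 2667 FPKM in control libraries, a difference of 0.16 ± 0.26 with overlapping groups. Ferritin light chain (FTL) differed by -0.16 ± 0.27 and ferroportin (SLC40A1) by 0.04 ± 0.18. Ceruloplasmin (CP), the ferroxidase of plasma, differed by -0.32 ± 0.28. None of the 6 tested members of the storage, chaperone and export list was called, and the list's median was 0.00 (-0.08 after median-of-ratios scaling). PCBP1, the chaperone that delivers iron to ferritin, measured 111.2, 105.1 and 105.5 FPKM in low-iron against 80.1, 80.8 and 99.6 FPKM in control libraries, without overlap but at a difference of only 0.31 ± 0.16. Protein was not measured, so ferritin and ferroportin amounts are not given by these values.

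Hepcidin (HAMP) was low in only a part of the low-iron group. HAMP measured 3.84, 2.02 and 70.5 FPKM in low-iron, 50.3, 42.0 and 16.2 FPKM in control and 52.3, 6.87 and 21.8 FPKM in high-iron libraries. Low-iron replicates 2 and 3 were below every control library, and so was high-iron replicate 7. Low-iron replicate 7 was the highest of all 9 libraries. The log2 difference from control was -1.96 ± 1.14 and it was not called. Leaving out low-iron replicate 7 gave -3.49, which was called. The same replicate had the lowest TFRC of its group.

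**Figure D2:**
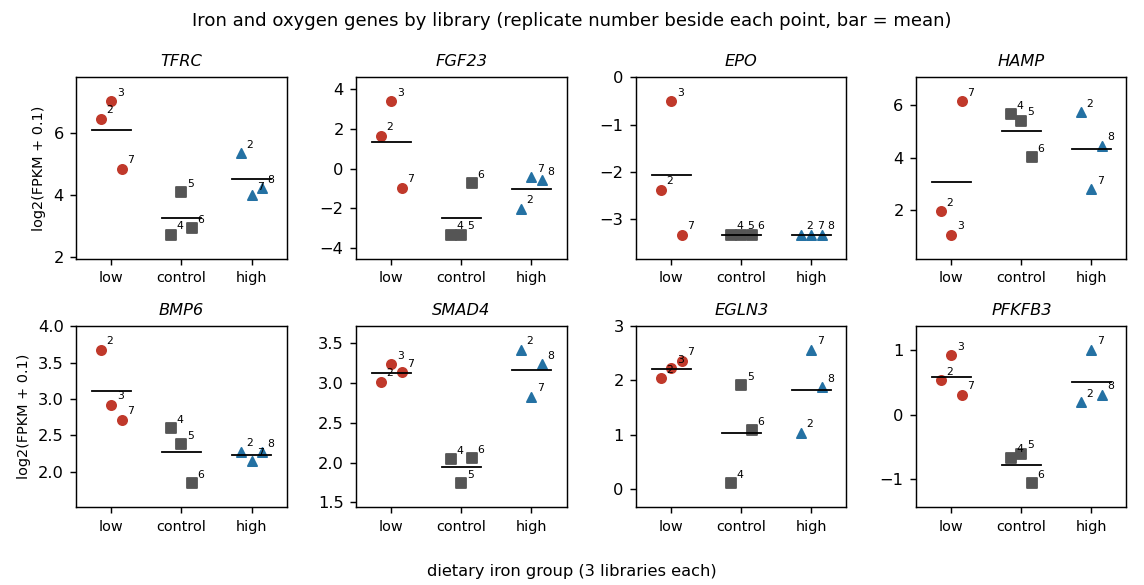
Points give log2(FPKM + 0.1) of 8 genes of iron and oxygen handling in each library, with the replicate number beside the point and a bar at the group mean. The low-iron points of TFRC lie above all control points, while for HAMP replicate 7 lies apart from replicates 2 and 3.

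Among the regulators of hepcidin, SMAD4 was called and BMP6 was not. SMAD4, the shared partner of the receptor-activated SMAD proteins (chr1:100521843-100633501), measured 7.97, 9.28 and 8.64 FPKM in low-iron and 4.02, 3.24 and 4.06 FPKM in control libraries. The spread within each group was small, at 8.63 ± 0.655 against 3.77 ± 0.460 FPKM (SD, n = 3), and the groups did not overlap. Its difference of 1.18 ± 0.20 had the smallest p-value in the comparison and was called in all 9 fits that left out a library. High-iron libraries measured 10.5, 6.97 and 9.31 FPKM, so low iron and high iron differed by -0.03 ± 0.20 while the control group was lower than both.

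BMP6, the ligand that raises hepcidin transcription, measured 12.7, 7.47 and 6.48 FPKM in low-iron and 5.97, 5.11 and 3.48 FPKM in control libraries. The groups did not overlap, but the difference of 0.83 ± 0.28 (past the p-value threshold) was below the fold change for a call. High-iron libraries, at 4.75, 4.32 and 4.71 FPKM, were also below every low-iron library. ID2, a transcriptional target of this pathway, differed by 0.58 ± 0.28. Of 23 tested members of the hepcidin and BMP/SMAD list, 17 had a higher mean in low iron and 1 was called, and the median was 0.16 (0.08 after median-of-ratios scaling).

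Haem and mitochondrial iron genes gave no call in either direction. The 20 tested genes of haem synthesis and breakdown had a median of 0.09 (0.01 after median-of-ratios scaling). Haem oxygenase 1 (HMOX1), which frees iron from haem, measured 107.6, 101.6 and 127.3 FPKM in low-iron and 56.7, 58.7 and 107.4 FPKM in control libraries. It differed by 0.65 ± 0.29 (past the p-value threshold), with control replicate 6 inside the range of the low-iron group. HMOX2 measured 69.3, 56.9 and 71.1 FPKM against 49.9, 49.9 and 55.7 FPKM, at a difference of 0.34 ± 0.17. Biliverdin reductase (BLVRA) differed by 0.58 ± 0.31. Of 22 tested genes of mitochondrial iron and iron-sulfur cluster assembly, 19 had a higher mean in low iron at a median of 0.13, and after median-of-ratios scaling 13 of 22 did, at a median of 0.05. ABCB8 (0.39 ± 0.19) and the cytosolic assembly factor CIAO1 (0.32 ± 0.16) had the smallest p-values in that list, followed by the mitochondrial iron importer SLC25A37 (0.33 ± 0.21).

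Fibroblast growth factor 23 (FGF23), a phosphate-regulating hormone made mainly in bone, had a large difference and was picked here after its values were seen. FGF23 measured 3.06, 10.4 and 0.414 FPKM in low-iron, 0, 0 and 0.502 FPKM in control and 0.146, 0.635 and 0.567 FPKM in high-iron libraries. Low-iron replicates 2 and 3 were above every other library, whereas replicate 7 lay within the range of the control group, so the groups overlapped. The difference was 3.82 ± 1.06 on the log2(FPKM + 0.1) scale. It was 2.81 without low-iron replicate 3, 4.99 without low-iron replicate 7 and 4.69 without control replicate 6. FGF23 passed the filter on low values only through low-iron replicates 2 and 3, so its call is no support for a difference.

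Erythropoietin (EPO), the hormone of red cell formation and a HIF target, measured 0.0929, 0.604 and 0 FPKM in low-iron libraries. EPO was listed at 0 in all control and all high-iron libraries. It was below the filter, and an exact permutation test of the 3 against 3 libraries gave p = 0.4 (two-sided), where the smallest p this design allows is 0.1. Low-iron replicate 3 thus had the highest TFRC, FGF23 and EPO and the lowest HAMP of its group, and replicate 7 had the lowest TFRC, FGF23 and EPO and the highest HAMP. With 3 pigs this order is a description and was not tested.

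The subunits of HIF itself did not separate the groups. HIF1A measured 9.96, 13.0 and 7.93 FPKM in low-iron and 11.4, 11.2 and 8.40 FPKM in control libraries, a difference of -0.02 ± 0.21. EPAS1, the HIF-2 alpha subunit, differed by 0.40 ± 0.25. Of the oxygen sensors, EGLN3, a prolyl hydroxylase that is itself a HIF target, was called. EGLN3 measured 4.03, 4.59 and 5.04 FPKM in low-iron and 0.978, 3.65 and 2.01 FPKM in control libraries, without overlap, at 1.18 ± 0.46. It was called in 5 of the 9 fits that left out a library, and was lost at 1.17 without low-iron replicate 3, 1.11 without low-iron replicate 7, 0.72 without control replicate 4 and 1.20 without control replicate 6. EGLN2 differed by 0.66 ± 0.29 (past the p-value threshold) and was not called. The 8 tested genes of the list had a median of 0.03 (-0.06 after median-of-ratios scaling).

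Of 31 tested hypoxia-induced genes, 3 were called, all higher, namely TFRC, PFKFB3 and EGLN3, and 27 had a higher mean in low iron. The list's median was 0.20, and after median-of-ratios scaling it was 0.11 with 22 of 31 genes higher. PFKFB3, which makes the activator of phosphofructokinase, measured 1.34, 1.79 and 1.14 FPKM in low-iron and 0.530, 0.559 and 0.379 FPKM in control libraries. These groups did not overlap, and the difference of 1.36 ± 0.34 was called in all 9 fits that left out a library, though not at a pseudocount of 1 because the gene is low. High-iron libraries measured 1.04, 1.91 and 1.14 FPKM, a difference from low iron of 0.09 ± 0.34. The relatives PFKFB1 (0.25 ± 0.28), PFKFB2 (0.09 ± 0.43) and PFKFB4 (0.02 ± 0.48) were not called. Lactate dehydrogenase A (LDHA) measured 42.8, 68.0 and 50.7 FPKM against 30.9, 34.5 and 50.4 FPKM, at 0.48 ± 0.25.

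Other HIF-linked genes that the study followed showed no call. TIMP1 differed by 0.09 ± 0.55 and ANGPT2 by 0.35 ± 0.53. ANGPT1 was below the filter, at 0.270, 0.883 and 0.282 FPKM in low-iron and 0.267, 0.450 and 0.383 FPKM in control libraries (exact permutation p = 0.8, two-sided). ACTB, a cytoskeletal gene that served the study as its housekeeping reference, differed by 0.18 ± 0.22.

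Enzymes of unsaturated and long-chain fatty acid synthesis held 3 calls, all higher in low iron. FADS1, the delta-5 desaturase and, like other desaturases, an iron enzyme (chr2:9735425-9747405), measured 87.9, 52.8 and 49.8 FPKM in low-iron and 10.5, 41.0 and 13.2 FPKM in control libraries. Control replicate 5 came near the low-iron group and the groups did not overlap. The difference was 1.78 ± 0.45, a 3.42-fold higher level, and it was called in all 9 fits that left out a library, with 2.37 without control replicate 5. FADS2, the delta-6 desaturase on the opposite strand nearby (chr2:9633941-9666666), measured 156.1, 106.6 and 109.9 FPKM in low-iron and 26.3, 90.3 and 55.5 FPKM in control libraries. It was higher by 1.26 ± 0.39, without overlap, and the call was lost without control replicate 4, where the difference was 0.79.

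ELOVL6, which elongates palmitate, measured 50.7, 64.4 and 89.7 FPKM in low-iron and 22.2, 34.8 and 42.5 FPKM in control libraries. The groups did not overlap and the difference was 1.05 ± 0.29. Its call was lost after median-of-ratios scaling, where the difference was 0.97, after quantile normalization, without low-iron replicate 7 (0.83) and without control replicate 4 (0.79). Low iron was above high iron by 0.65 ± 0.45 for FADS1, 0.25 ± 0.39 for FADS2 and 0.35 ± 0.29 for ELOVL6, none of them called. The low-iron and high-iron values overlapped for FADS2 and ELOVL6 and not for FADS1. High iron was itself above control for FADS1 (1.12 ± 0.45), FADS2 (1.02 ± 0.39) and ELOVL6 (0.70 ± 0.29). Each was past the p-value threshold with overlapping groups. FADS1, FADS2 and ELOVL6 were the only calls of low iron against control among 15 tested genes of desaturation and elongation. The list as a whole had a median of 0.05, or -0.04 after median-of-ratios scaling, so the direction of its median depended on the scaling.

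**Figure D3:**
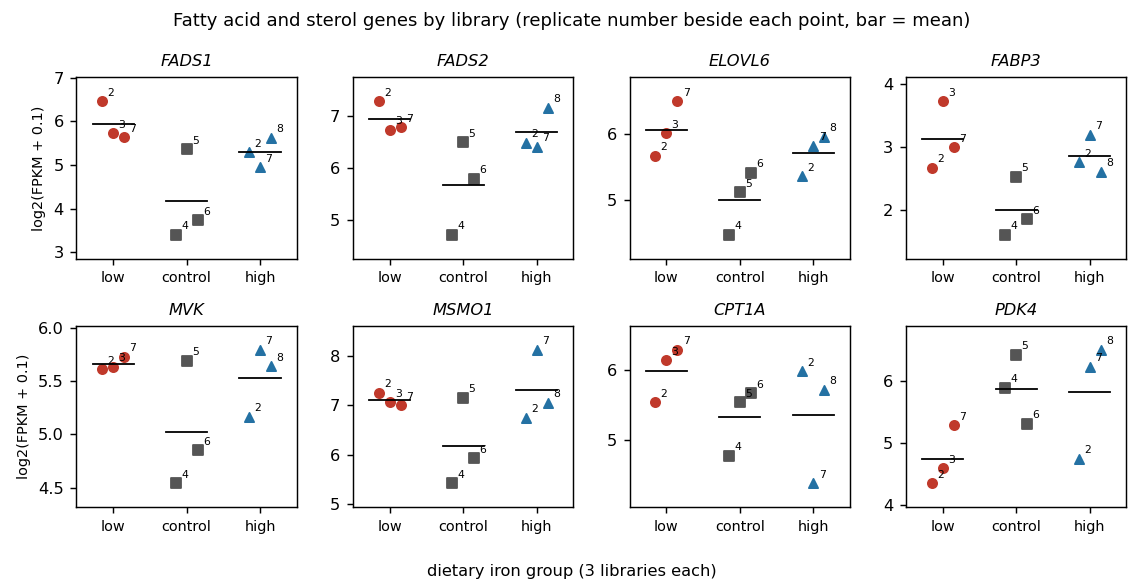
Points give log2(FPKM + 0.1) of 8 genes of fatty acid and sterol metabolism in each library, with the replicate number beside the point and a bar at the group mean. FADS1, FADS2 and ELOVL6 lie higher and PDK4 lower in low iron than in all control libraries, and control replicate 5 is the highest control library for FADS1, FADS2, MVK, MSMO1 and PDK4.

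In fat use, PDK4, the kinase that shuts pyruvate dehydrogenase and spares glucose, was called lower. PDK4 measured 20.2, 23.9 and 38.8 FPKM in low-iron and 59.3, 85.5 and 39.5 FPKM in control libraries. Low-iron replicate 7 and control replicate 6 lay next to each other without overlap, and the difference was -1.13 ± 0.45. It was lost in 4 of the 9 fits that left out a library, at -0.94 without low-iron replicate 2, -1.06 without low-iron replicate 3, -1.13 without control replicate 4 and -0.86 without control replicate 5. High-iron libraries measured 26.6, 74.8 and 90.5 FPKM, with replicate 2 inside the range of the low-iron group and below every control library. FABP3, a fatty acid carrier, measured 6.28, 13.2 and 7.89 FPKM in low-iron against 2.96, 5.70 and 3.53 FPKM in control libraries and was called higher, at 1.13 ± 0.32. Its call was lost without low-iron replicate 3 (0.83) and without control replicate 4 (0.94).

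Of 34 tested genes of PPAR signalling and fatty acid oxidation, PDK4 was the only call and 27 had a higher mean in low iron. Their median was 0.22 (0.14 after median-of-ratios scaling). CPT1A, which admits fatty acids to mitochondria, measured 46.5, 70.3 and 77.9 FPKM against 27.3, 46.2 and 50.6 FPKM, at 0.66 ± 0.40. VNN1, a PPAR alpha target, differed by 0.81 ± 0.54. In cholesterol synthesis and lipogenesis, 0 of 29 tested genes were called and 24 had a higher mean, with a median of 0.30 (0.22 after median-of-ratios scaling). MVK (mevalonate kinase) measured 48.7, 49.5 and 52.9 FPKM in low-iron and 23.2, 51.5 and 28.7 FPKM in control libraries. Control replicate 5 was at the level of the low-iron group, and the difference was 0.63 ± 0.28 (past the p-value threshold). MSMO1, a sterol oxidase that uses iron, showed the same order with 152.2, 133.1 and 127.8 FPKM against 42.9, 142.1 and 61.0 FPKM, at 0.93 ± 0.43. DGAT2, which makes triglycerides, differed by 0.54 ± 0.24.

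In sugar metabolism, PFKFB3 was the only call among 34 tested genes of glycolysis, gluconeogenesis and fructose use. A higher mean in low iron was found for 28 of them, with a median of 0.16 (0.08 after median-of-ratios scaling, with 22 genes higher). GPI, the enzyme of the glucose 6-phosphate to fructose 6-phosphate step, measured 62.4, 68.9 and 82.2 FPKM in low-iron and 51.6, 46.9 and 58.6 FPKM in control libraries. It did not overlap between groups, at a difference of 0.44 ± 0.18 (past the p-value threshold). TKFC, the triokinase of fructose breakdown, differed by 0.33 ± 0.17.

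Amino acid genes moved in both directions. SLC38A2, a sodium-coupled transporter of neutral amino acids, measured 29.8, 49.8 and 39.2 FPKM in low-iron and 73.8, 124.0 and 57.9 FPKM in control libraries and was called lower without overlap, at -1.06 ± 0.29. The call was lost without low-iron replicate 2 (-0.87) and without control replicate 5 (-0.75). SLC7A11, the cystine importer, measured 0.232, 0.721 and 0.499 FPKM against 1.32, 3.06 and 0.547 FPKM and was called lower at -1.39 ± 0.58, with overlapping groups. It was lost in 4 of the fits that left out a library, at -1.03 without low-iron replicate 2, -1.45 without low-iron replicate 7, -1.39 without control replicate 4 and -0.81 without control replicate 5. ATF3, a stress-induced transcription factor, measured 2.88, 3.87 and 6.91 FPKM against 1.12, 3.18 and 2.03 FPKM. It was called higher at 1.10 ± 0.41, with overlapping groups. That call was lost without low-iron replicate 7 (0.75) and without control replicate 4 (0.72). Over the list of the amino acid and endoplasmic reticulum stress response, 22 genes were tested and 17 had a higher mean, at a median of 0.43 (0.35 after median-of-ratios scaling). HERPUD1, of the degradation of misfolded proteins, differed by 0.55 ± 0.29.

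Among 32 tested genes of the urea cycle and amino acid breakdown, 0 were called and the median was 0.08 (0.00 after median-of-ratios scaling). CDO1, the iron-dependent cysteine dioxygenase, measured 516.0, 555 and 584 FPKM in low-iron and 227.9, 632 and 198.0 FPKM in control libraries. Control replicate 5 was above the low-iron group, and the difference was 0.85 ± 0.37 (past the p-value threshold). Cystathionine beta-synthase (CBS), a haem enzyme, differed by 0.39 ± 0.20 and tyrosine aminotransferase (TAT) by -0.51 ± 0.37.

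Pyrimidine metabolism held 2 calls among 29 tested genes, both higher. CTPS1, which makes CTP from UTP, measured 1.08, 1.59 and 3.06 FPKM in low-iron and 0.528, 0.697 and 0.675 FPKM in control libraries, without overlap. It was higher by 1.34 ± 0.46, and the call was lost without low-iron replicate 7, at 0.95. UPP1, uridine phosphorylase, measured 2.10, 2.11 and 1.66 FPKM against 0.816, 0.857 and 1.09 FPKM. Its difference of 1.01 ± 0.37 was just past the fold change for a call, which was lost after median-of-ratios scaling, after quantile normalization and in 4 fits that left out a library, at 0.96 without low-iron replicate 2, 0.95 without low-iron replicate 3, 0.94 without control replicate 4 and 0.97 without control replicate 5. DTYMK, the thymidylate kinase, differed by 0.67 ± 0.27 (past the p-value threshold). The list's median was 0.10, or 0.02 after median-of-ratios scaling.

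**Figure D4:**
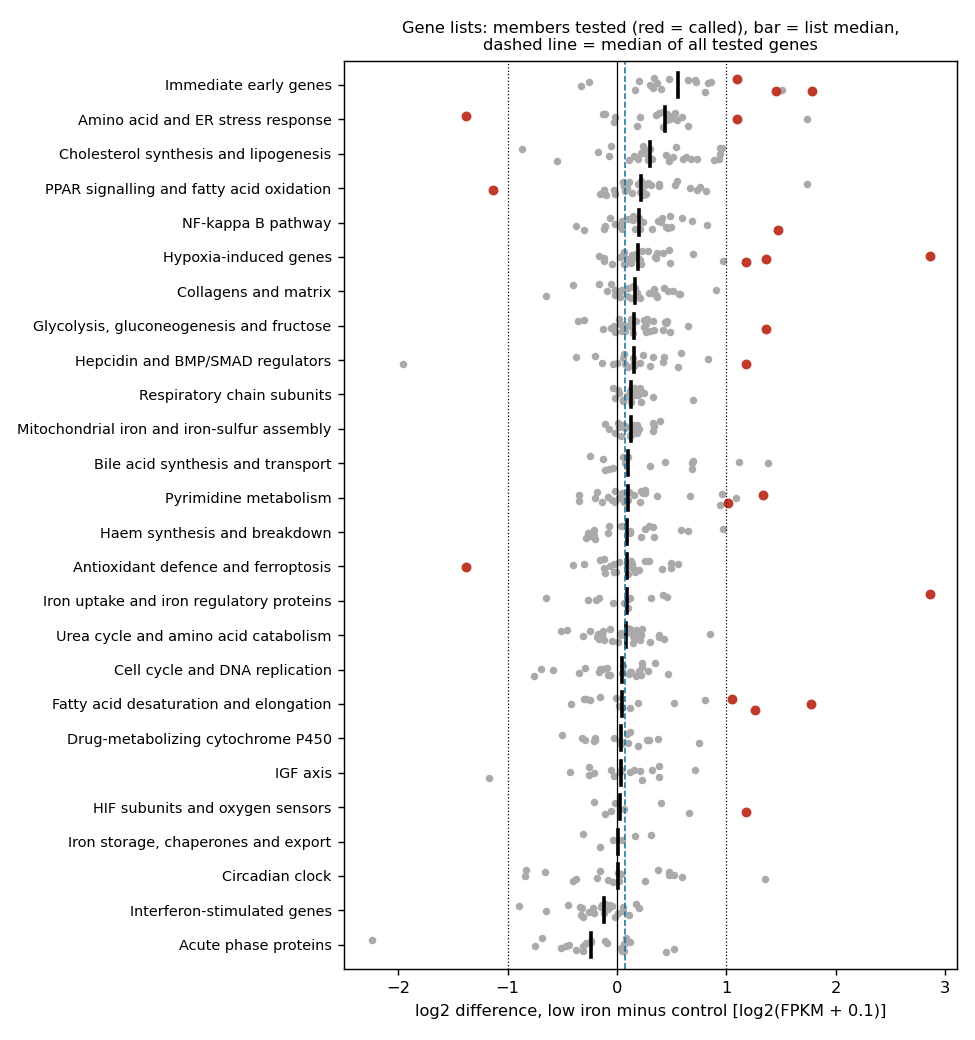
Each row is a gene list, each point a tested member with its log2 difference of low iron minus control, and each black bar the list's median. Red points are called genes and the dashed line is the median of all tested genes, 0.08. Medians lie between -0.24 for acute phase proteins and 0.56 for immediate early genes.

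Over the 26 pathway lists, 15 of 560 tested genes were called (2.68%, against 0.882% of all tested genes). The lists were chosen with earlier results of these libraries known, so this share does not stand as evidence for them. Respiratory chain subunits had 20 of 22 tested genes higher at a median of 0.13, against 16 of 22 and 0.05 after median-of-ratios scaling, and 0 calls. Cytochrome c (CYCS), the haem protein that carries electrons between complexes, measured 48.0, 55.1 and 57.6 FPKM in low-iron and 25.8, 36.7 and 38.1 FPKM in control libraries. It did not overlap between groups, and its difference of 0.69 ± 0.20 (past the p-value threshold) was below the fold change for a call. The complex I subunits NDUFV1 (0.33 ± 0.17, without overlap) and NDUFS7 (0.21 ± 0.21) were not called.

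Several other liver programmes had at most 1 call. For the 17 tested drug-metabolizing cytochrome P450 genes the median was 0.04 (-0.04 after median-of-ratios scaling), with CYP3A22 at -0.50 ± 0.37, its regulator NR1I2 at -0.29 ± 0.24 and CYP3A29 at 0.28 ± 0.27. For 15 genes of bile acid synthesis and transport it was 0.10 (0.02). CYP7A1, the rate-limiting enzyme of bile acid synthesis, measured 72.2, 24.3 and 18.4 FPKM in low-iron and 8.67, 24.9 and 8.42 FPKM in control libraries, at 1.38 ± 0.86 with overlapping groups. The phospholipid exporter ABCB4 differed by 0.70 ± 0.36 and CYP27A1 by 0.44 ± 0.30. Antioxidant and ferroptosis genes had 1 call among 26, which was SLC7A11, and a median of 0.09 (0.01). In that list the phospholipid acyltransferase LPCAT3 differed by 0.49 ± 0.27 and thioredoxin reductase TXNRD1 by 0.29 ± 0.18.

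IGF axis genes had 0 calls among 17 and a median of 0.03 (-0.05). IGF1, the growth factor itself, measured 0.989, 1.47 and 10.1 FPKM in low-iron and 2.80, 17.4 and 3.86 FPKM in control libraries, at -1.18 ± 0.81 with overlapping groups. Its binding proteins IGFBP2 and IGFBP4 differed by 0.38 ± 0.30 and 0.38 ± 0.26. Cell cycle genes had 0 calls among 24 and a median of 0.05 (-0.02), with the replication genes MCM5 at -0.69 ± 0.34, TYMS at -0.35 ± 0.25 without overlap and PCNA at 0.28 ± 0.20. Collagens and matrix genes had 0 calls among 29 and a median of 0.16 (0.08). POSTN differed by -0.40 ± 0.20 without overlap, and the basement membrane genes COL4A1 and LAMB1 by 0.47 ± 0.24 and 0.36 ± 0.20.

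Immediate early genes, which respond within minutes to stimuli and handling, had the highest median of the pathway lists, 0.56 (0.48 after median-of-ratios scaling). Of 20 tested genes, 18 had a higher mean in low iron and 3 were called, namely EGR1, KLF4 and ATF3. EGR1 measured 11.9, 32.7 and 7.23 FPKM in low-iron and 1.85, 14.6 and 2.37 FPKM in control libraries, at 1.79 ± 0.73 with overlapping groups. Its call was lost in 4 of the fits that left out a library, at 1.91 without low-iron replicate 2, 1.18 without low-iron replicate 3, 1.24 without control replicate 4 and 1.41 without control replicate 6, and it was 2.70 without control replicate 5. KLF4 was called at 1.46 ± 0.55 and lost without low-iron replicate 3 (0.94) and without control replicate 5 (1.02). IER2 differed by 0.71 ± 0.23 (past the p-value threshold) without a call. FOS measured 6.09, 101.1 and 8.74 FPKM against 1.46, 36.2 and 4.13 FPKM, so low-iron replicate 3 and control replicate 5 stood above the others of their groups. The summed level of the list ranged from 144.3 to 469 FPKM in low-iron and from 122.7 to 278 FPKM in control libraries.

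Clock genes had 0 calls among 19 and a median of 0.00 (-0.07 after median-of-ratios scaling). BHLHE40 differed by 0.47 ± 0.34. PER1, a clock gene that also responds to glucocorticoids, measured 6.31, 6.26 and 10.3 FPKM in low-iron and 13.5, 16.9 and 10.5 FPKM in control libraries, at -0.84 ± 0.27 (past the p-value threshold) without overlap and without a call. RORA was at 35.3 FPKM in control replicate 5 and between 3.91 and 7.48 FPKM in the other 5 libraries.

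Of the inflammatory lists, 2 had a median below 0. Acute phase proteins had the lowest median of the pathway lists, -0.24 (-0.32 after median-of-ratios scaling), with 14 of 22 tested genes lower and 0 called. Serum amyloid P (APCS) measured 354, 349.9 and 287.1 FPKM in low-iron and 719.8, 428 and 484 FPKM in control libraries, without overlap, at -0.69 ± 0.28 (past the p-value threshold). The fibrinogen alpha chain (FGA) differed by -0.47 ± 0.35 and the interleukin 1 receptor IL1R1 by 0.44 ± 0.35. Interferon-stimulated genes had 19 of 25 lower and 0 called, at a median of -0.12 (-0.20). Leaving out low-iron replicate 7 turned this median to 0.11, and it was -0.41 without low-iron replicate 3. EPSTI1 differed by -0.65 ± 0.42 and DDX58, a sensor of viral RNA, by -0.34 ± 0.29. IFI6 was at 608 FPKM in control replicate 4 and between 89.5 and 182.3 FPKM in the other 5 libraries. In the NF-kappa B list, 23 of 29 genes had a higher mean, at a median of 0.20 (0.12), and 1 was called. That gene, the chemokine CCL4, measured 11.4, 5.43 and 10.7 FPKM against 4.99, 1.39 and 4.21 FPKM, at 1.47 ± 0.44 without overlap, and was lost without control replicate 5 (0.92). NFKBIB (0.59 ± 0.22) and IKBKB (0.41 ± 0.16), both regulators of NF-kappa B release, were past the p-value threshold and not called.

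The matched markers of the other liver cell types gave no call in endothelial, macrophage, stellate, bile duct, T and NK or B and plasma cells. GZMA, a T and NK cell marker whose symbol is on more than 1 row, was not matched and is outside the counts below. A row of GZMA was itself called higher in low iron, at 1.16 ± 0.44 without overlap, with a mean of 0.69 FPKM over the 9 libraries. Of 13 Kupffer cell and macrophage markers, 12 had a higher mean in low iron, at a median of 0.18 (0.10 after median-of-ratios scaling), with a summed level of 984 to 1157 FPKM against 845 to 1096 FPKM in control libraries. Sinusoidal endothelial markers had a median of 0.19 (0.11) and a summed level of 254 to 331 FPKM against 248.1 to 289.5 FPKM. Within them STAB1 measured 18.3, 20.1 and 20.4 FPKM against 12.9, 15.5 and 12.3 FPKM, at 0.54 ± 0.16 (past the p-value threshold). B and plasma cell markers were lower in 9 of 10 genes, at a median of -0.38 (-0.45), and T and NK cell markers in 8 of 12, at -0.05 (-0.13). Stellate cell markers had a median of 0.11 (0.03) over 10 genes, bile duct markers 0.19 (0.12) over 6, and the single tested platelet marker differed by 0.08. The part of these markers in the differences above was not tested.

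Neutrophil markers had a higher mean in low iron in 5 of 5 tested genes, at a median of 0.37 (0.29 after median-of-ratios scaling), and 1 was called. Their summed level was 34.7 to 37.2 FPKM in low-iron, 26.4 to 32.5 FPKM in control and 28.2 to 47.7 FPKM in high-iron libraries. S100A12, a calcium-binding protein of granulocytes, measured 0.468, 3.29 and 2.14 FPKM in low-iron and 0.699, 0 and 0 FPKM in control libraries, at 3.03 ± 1.12 with overlapping groups. It passed the filter only through the low-iron group. Its call was lost without low-iron replicate 3 (2.497), without low-iron replicate 7 (2.79), without control replicate 5 (2.53) and without control replicate 6 (2.53), and the value moved to 3.79 without low-iron replicate 2 and 4.03 without control replicate 4. The granule genes MPO and ELANE were below the filter in these livers. EIF1AY, a Y-linked gene, was above 0 in 2 of 3 libraries of each group compared, so the groups did not differ in that count.

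The other genes among the 12 named as higher were expressed at low levels. COQ10A, a coenzyme Q chaperone, measured 2.21, 1.72 and 2.92 FPKM in low-iron and 0.581, 0.220 and 1.26 FPKM in control libraries, at 1.81 ± 0.46. NARF, which has homology to iron-only hydrogenases, measured 2.998, 4.89 and 3.23 FPKM against 1.54, 1.25 and 2.15 FPKM, at 1.12 ± 0.29. NARF was lost without low-iron replicate 3 (0.91) and without control replicate 5 (0.96). CEMIP, a hyaluronan-binding protein, measured 2.12, 3.22 and 0.990 FPKM against 0.282, 0.571 and 0.491 FPKM, at 1.91 ± 0.54. For CEMIP the call was present in all the fits that left out a library. TMEM125, a membrane protein, was higher by 1.83 ± 0.52 with all low-iron values at or under 1.24 FPKM, and it passed the filter only through the low-iron group. EMP3 (1.04 ± 0.27) and the cytokine receptor IL27RA (1.06 ± 0.30) were just past the fold change for a call. Both lost it after median-of-ratios scaling and after quantile normalization, EMP3 also without low-iron replicate 3 (0.91) and without control replicate 4 (0.90), and IL27RA without low-iron replicate 7 (0.98).

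Of the genes called lower, CCDC71L had the smallest p-value. CCDC71L, a coiled-coil protein gene (chr9:106540924-106545324), measured 4.07, 5.36 and 4.89 FPKM in low-iron and 11.9, 14.4 and 12.3 FPKM in control libraries. Each group was narrow, at 4.77 ± 0.655 against 12.9 ± 1.32 FPKM (SD, n = 3), and the difference of -1.42 ± 0.27 was called in all 9 fits that left out a library. Low iron was also below high iron, by -0.73 ± 0.27. CHL1, a neural adhesion molecule, measured 2.89, 6.07 and 2.26 FPKM in low-iron, 11.8, 8.42 and 8.84 FPKM in control and 7.62, 7.89 and 9.09 FPKM in high-iron libraries. The low-iron group was below both other groups without overlap, at -1.46 ± 0.32 from control and -1.23 ± 0.32 from high iron.

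THRB, the thyroid hormone receptor that acts in the liver, measured 2.84, 1.45 and 1.89 FPKM in low-iron, 4.94, 5.38 and 3.10 FPKM in control and 3.42, 4.20 and 3.62 FPKM in high-iron libraries. It was called lower than control at -1.10 ± 0.29 and was lost without low-iron replicate 3 (-0.88) and without control replicate 5 (-0.95). VEGFD, a lymphatic growth factor, differed by -1.20 ± 0.40, with 0.426, 0.463 and 1.13 FPKM against 1.59, 1.77 and 1.30 FPKM, and was lost without low-iron replicate 2 (-0.98).

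NKX6-3 (-1.95 ± 0.49) and GCM1 (-1.82 ± 0.55), both developmental transcription factors, had all values at or under 1.90 FPKM in the 6 libraries, and NKX6-3 passed the filter only through the control group. The last 4 of the 12 genes named as lower were each lost in at least 2 such fits. CLDN8, a tight junction claudin, differed by -2.54 ± 0.92 and by -1.59 without control replicate 5, which was at 4.19 FPKM, and by -2.04 without low-iron replicate 7. The ascorbate transporter relative SLC23A3 differed by -1.06 ± 0.41, and by -0.67 without low-iron replicate 3 and -0.92 without control replicate 6. BCL2L14 (-1.03 ± 0.41) was lost without low-iron replicates 2 (-1.04) or 3 (-0.83) or control replicate 6 (-0.88). TCEAL1 (-1.51 ± 0.61) was lost without the same 3 libraries, at -1.59, -1.10 and -1.15.

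**Figure D5:**
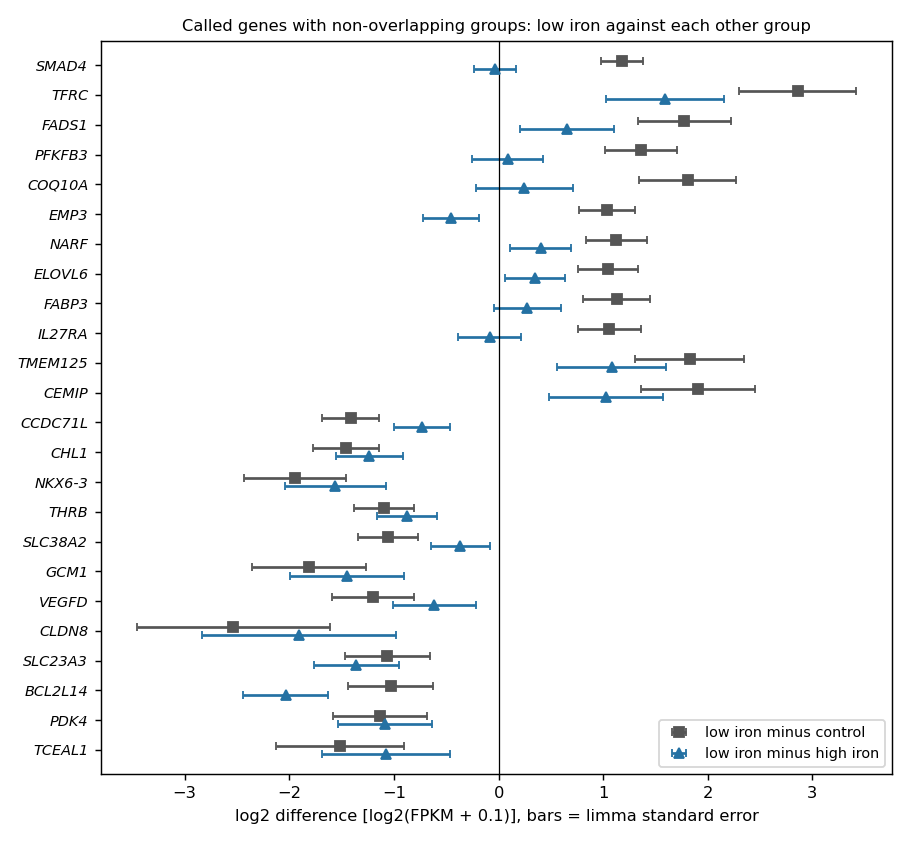
Shown are 24 called genes with a symbol and no overlap between low iron and control, 12 higher and 12 lower, taken in order of p-value. Squares give the log2 difference of low iron minus control and triangles that of low iron minus high iron, with limma standard errors. TFRC lies above 0 and CCDC71L and CHL1 below 0 in both, while SMAD4, PFKFB3 and IL27RA lie within 0.1 of 0 against high iron.

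Set beside the high-iron group, these 24 genes fell into different patterns. Low iron differed from both other groups, past the p-value threshold in each comparison, for TFRC among the higher genes. Among the lower ones it did so for CCDC71L, CHL1, NKX6-3, THRB, GCM1, SLC23A3, BCL2L14 and PDK4. NKX6-3 passed the filter only through the control group and BCL2L14 only through the high-iron group, so neither is support for this pattern. The low-iron and high-iron values overlapped for TFRC, CCDC71L, GCM1 and PDK4. For SMAD4 (-0.03 ± 0.20), PFKFB3 (0.09 ± 0.34), FABP3 (0.28 ± 0.32), IL27RA (-0.08 ± 0.30) and COQ10A (0.25 ± 0.46) the difference between low and high iron was smaller than its standard error. Among the higher genes, high iron was itself above control, past the p-value threshold, for all but TMEM125 and CEMIP. This difference was 1.21 ± 0.20 for SMAD4, 1.49 ± 0.27 for EMP3, 1.14 ± 0.30 for IL27RA and 1.28 ± 0.34 for PFKFB3. It was 1.56 ± 0.46 for COQ10A, 0.85 ± 0.32 for FABP3 and 0.72 ± 0.29 for NARF. Among the lower genes, CCDC71L (-0.68 ± 0.27), SLC38A2 (-0.70 ± 0.29) and BCL2L14 (1.00 ± 0.41) passed it. These comparisons share libraries and are not independent of each other.

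Other settings also ended some of these calls. At a pseudocount of 1 in place of 0.1, which shrinks differences between low values, PFKFB3, COQ10A, EMP3, NARF, FABP3, IL27RA, TMEM125, NKX6-3, THRB, GCM1, VEGFD, CLDN8, SLC23A3, BCL2L14, TCEAL1, EGLN3, ATF3, SLC7A11, CTPS1, UPP1 and KLF4 were no longer called. A fit of the 6 libraries alone lost BCL2L14, SLC7A11 and EGR1, array quality weights lost SLC23A3, BCL2L14, KLF4 and S100A12, and quantile normalization lost EGR1 in addition to the genes named for it above. TFRC, SMAD4, FADS1, CEMIP, CCDC71L and CHL1 were called under every setting run and without every library in turn.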

How the data were processed

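Liver RNA was poly(A)-selected, and the authors used HISAT2 for alignment to Sscrofa11.1 and StringTie for assembly. They deposited 1 table of FPKM, a column for each library, with no pooling of replicates. The 20660 numbered genes of the table were read as serial numbers of the NCBI annotation release of that build, all of which fell on protein-coding genes (15031 when shifted by 1). The 5258 new genes have no position. FPKM was not scaled further. Genes with a mean of at least 0.5 FPKM were tested as log2(FPKM + 0.1) with limma 3.58.1 in R 4.3.3, in 1 linear fit of the 3 groups (6 residual degrees of freedom) with a variance trend. This was tested on simulated data, in which genes were drawn independently and no shift between libraries was set. Such a test cannot vouch for the calls made here. A fold change on this scale understates the change of low genes. The thresholds are those of the study. A count model could not be used, since the table holds no counts. Tables were made with Python 3.11.15, pandas 2.3.3 and numpy 2.4.6. Values at the gene level come from separate pigs.

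The genes named are, among called genes with a symbol and no overlap between groups, the 12 higher and the 12 lower with the smallest p, called members and the 3 smallest p-values of each pathway list, and the genes the study named for its HIF-1 and hepcidin results. FGF23, FTL, SLC40A1, TF, S100A12, HBB, HBM, EPOR, SULT1E1, SERPINA6 and 1 new gene, and members named by their range or as list examples, were chosen after their values were seen. A gene under this rule was left out of the text. Members, lists and thresholds were chosen with earlier results of these data known. The lists hold 754 symbols, of which 720 were found in the table. Alternatives were other pseudocounts (1 and 0.01), no filter, a mean of at least 1 FPKM, TPM, array quality weights, quantile normalization, median-of-ratios scaling, the 6 libraries fitted alone, EIF1AY as a covariate and each library left out. A fit without the variance trend was added after the data were seen.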

Additional observations from a re-analysis of the deposited data

How the results depend on the processing

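The 111 calls (75 higher, 36 lower) became 34 (22 and 12) at a pseudocount of 1, 331 (237 and 94) with no filter and 171 (107 and 64) with array quality weights, and the lower calls became 23 at a mean of at least 1 FPKM and 58 after quantile normalization. Leaving out 1 library gave 111 to 209 calls, 67 to 138 higher and 27 to 71 lower. The highest total was without control replicate 5, followed by 186 without low-iron replicate 2 and 171 without control replicate 6. In limma, 0 genes had an adjusted p under 0.05 under every alternative run. The other alternatives gave between 77 and 124 calls. No paired analysis was possible because nothing in the labels or the design pairs a low-iron pig with a control pig. Without the variance trend, a fit added after the data were seen, there were 114 calls, 105 of them shared. The cause of these shifts was not tested.

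TFRC was called under every alternative. Directions that turned were all of differences that had not been called. Median-of-ratios scaling turned SLC40A1 (-0.040), TF (-0.019), PFKFB4 (-0.043) and the low against high iron difference of SMAD4 (0.014). Quantile normalization turned SLC40A1 (-0.053), PFKFB4 (-0.075) and IL27RA against high iron (0.036). Array quality weights turned TIMP1 (-0.13), PFKFB2 (-0.15) and PFKFB4 (-0.16), and a pseudocount of 1 turned PFKFB4 (-0.016). Over the fits that left out a library, the range crossed 0 for ACTB (-0.00086 to 0.28), ANGPT2 (-0.084 to 0.87), FTL (-0.25 to 0.017), HIF1A (-0.20 to 0.16), PFKFB2 (-0.28 to 0.30), PFKFB4 (-0.39 to 0.24), RORA (-1.47 to 0.076), SLC40A1 (-0.087 to 0.13), TF (-0.023 to 0.20) and TIMP1 (-0.44 to 0.44), and against high iron for FABP3 (-0.023 to 0.51), IL27RA (-0.39 to 0.10), PFKFB3 (-0.081 to 0.34) and SMAD4 (-0.20 to 0.095).

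Median-of-ratios scaling turned the sign of 7 pathway medians (iron storage, HIF subunits, desaturation and elongation, cytochrome P450, clock, IGF axis and cell cycle) and of the hepatocyte markers. Leaving out a library turned those 7 and 5 others (iron uptake, urea cycle, antioxidant, interferon-stimulated, -0.41 to 0.11, and collagen genes), and of the marker lists with at least 5 tested genes those of hepatocytes, stellate, bile duct and T and NK cells.

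Read depth does not show in FPKM, and 3 libraries a group limit the precision.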

Other observations

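Called genes of other liver functions, picked after their values were seen, included 2 that act on hormones. SERPINA6, which makes the cortisol-binding globulin of plasma, measured 147.9, 65.8 and 183.8 FPKM in low-iron and 42.7, 100.3 and 46.0 FPKM in control libraries, at 1.06 ± 0.42 on the log2 scale. SULT1E1, the oestrogen sulfotransferase, measured 194.2, 80.2 and 243.9 FPKM against 70.0, 127.3 and 44.0 FPKM, at 1.09 ± 0.49. In both genes low-iron replicate 3 was below control replicate 5, so the groups overlapped. The calls were lost after median-of-ratios scaling, after quantile normalization and in the fits without low-iron replicate 2, low-iron replicate 7, control replicate 4 or control replicate 6, at 0.92, 0.76, 0.84 and 0.89 for SERPINA6 and 0.93, 0.77, 1.06 and 0.72 for SULT1E1. SULT1E1 was also lost without high-iron replicate 8 (1.09), with no filter, with EIF1AY as a covariate and in the 6 libraries alone.

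A new gene of the authors' assembly, Sus_scrofa_newGene_14801, measured 139.4, 202.0 and 323.6 FPKM in low-iron, 1153, 567 and 545.5 FPKM in control and 7887, 753.5 and 1608 FPKM in high-iron libraries. Low iron was below every library of both other groups, while control replicate 4 was above high-iron replicate 7. Low iron differed by -1.76 ± 0.71 from control and by -3.34 ± 0.71 from high iron. Against control it was lost without low-iron replicate 2 (-1.47), without low-iron replicate 3 (-1.74) and without control replicate 4 (-1.41). It has no position or name here.

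Control replicate 5 was the lowest of the 6 libraries for 30.8% of tested genes, against 9.45% to 20.8% for the other 5.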
